A study of Mus musculus with 44 samples.

Results

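The 8 genes described here encode 7 transcription factors that set the fate of blood myeloid cells, Spi1, Cebpe, Cebpa, Cebpb, Gfi1, Irf8 and Runx1, and the granulocyte colony-stimulating factor receptor, Csf3r. They were chosen by name with earlier results of these data known, 8 of 17224 RefSeq genes with measured cytosines. Each was read from 1000 bp before to 1000 bp after its RefSeq span in mouse GRCm38 (mm10). Between 752 and 1020 of the 1083654 to 1380165 cytosines of each deposited table lay in these windows, and 1198 did so in at least 1 table. The study measured DNA methylation by reduced-representation bisulfite sequencing (RRBS), which reads CpG-rich restriction fragments and gives the percent of reads at a cytosine that were not converted, in whole blood, hippocampus and frontal cortex. All 44 libraries came from adult male wild-type C57BL/6J mice of 8 to 12 weeks. Every animal had first taken corticosterone (CORT) in drinking water for 7 days, at 200 mg/L with ethanol at 0.6% as vehicle, then diisopropyl fluorophosphate (DFP, 4 mg/kg, an organophosphate inhibitor of acetylcholinesterase) on day 8, and repeated CORT up to week 5. The mice were then injected subcutaneously with saline or with 0.5 mg/kg bacterial lipopolysaccharide (LPS). No group lacked CORT or DFP. Saline tissue was taken 6 h after injection and LPS tissue at 6, 12 or 24 h, so at 12 and 24 h the injection and the time of sampling cannot be told apart. Listing saline before the LPS groups in order of time, there were 4, 4, 3 and 3 libraries of blood, 3, 4, 3 and 4 of hippocampus, and 4, 4, 4 and 4 of cortex. Whether libraries of different tissues share an animal is not stated, and p-values measure the spread between the libraries of a group.

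Myeloid cells arise in bone marrow from progenitors in which Runx1, partner of the core-binding factor Cbfb, and Spi1, the Ets-family factor PU.1, open the myeloid programme. Cebpa commits progenitors to the granulocyte and monocyte path, Gfi1 and Cebpe carry granulocytes through maturation, Irf8 favours monocytes and dendritic cells, and Cebpb serves the accelerated granulocyte output of infection. Csf3r on neutrophils and their precursors receives G-CSF, the signal for neutrophil production and release. Methylation of CpG dinucleotides is typically low at CpG-rich promoters whether or not the gene is transcribed, and varies more between cell types at CpG-poor promoters and within gene bodies. Bisulfite conversion reads 5-methylcytosine and 5-hydroxymethylcytosine alike, and brain tissue is rich in the latter.

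The read depth behind each percent value is unknown, since the tables hold no counts, and no interval for counting error could be given. Averaged over all cytosines of the table, libraries had 33.4% to 33.7% in saline blood and 34.6% to 36.3% in LPS blood at 6 h, and 25.6% to 25.9% in saline and 24.2% to 24.9% in LPS hippocampus at 6 h. The median difference of all genes between LPS and saline blood was 0.556, 0.826 and 0.609 percentage points at 6, 12 and 24 h, and became -1.36, -1.62 and -1.42 points after subtraction of each library's mean. Each tissue's saline values were identical in its 3 tables, which differ in the cytosines they list, so a gene's level can shift between tables with the set of cytosines.

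No promoter sequence was available for Spi1 or Cebpe. The promoters of the other members were either CpG-poor or CpG-dense, and the 3 printed here show both kinds. Each sequence is the 250 bases before a transcription start from RefSeq on GRCm38.p6, written 5′ to 3′ on the gene's strand. Capitals mark CpGs with a value in at least 1 table. The first, chr4:126024409-126024658 on the plus strand, precedes Csf3r and holds 6 CpGs, 3 of them measured. The second, chr8:120736108-120736357 on the plus strand, precedes the outer start of Irf8 and holds 29 CpGs, 13 of them measured. The third, chr16:92697330-92697579 on the minus strand, precedes the inner start of Runx1 and holds 27 CpGs, 14 of them measured.
Csf3r: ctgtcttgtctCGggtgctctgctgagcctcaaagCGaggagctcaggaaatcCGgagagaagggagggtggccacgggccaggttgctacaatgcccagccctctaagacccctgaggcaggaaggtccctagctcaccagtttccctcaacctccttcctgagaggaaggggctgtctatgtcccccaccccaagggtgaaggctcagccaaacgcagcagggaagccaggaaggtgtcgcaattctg
Irf8: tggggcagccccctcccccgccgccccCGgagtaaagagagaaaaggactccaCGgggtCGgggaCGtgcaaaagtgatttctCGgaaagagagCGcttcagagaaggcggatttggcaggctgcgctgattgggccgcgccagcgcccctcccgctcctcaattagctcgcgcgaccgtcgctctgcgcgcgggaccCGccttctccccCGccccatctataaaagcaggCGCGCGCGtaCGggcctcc
Runx1, inner start: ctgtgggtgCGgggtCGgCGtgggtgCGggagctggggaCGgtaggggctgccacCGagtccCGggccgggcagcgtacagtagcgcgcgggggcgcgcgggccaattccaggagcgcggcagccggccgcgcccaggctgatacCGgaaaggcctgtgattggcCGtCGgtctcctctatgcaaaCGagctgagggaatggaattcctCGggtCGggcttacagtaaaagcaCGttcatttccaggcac
The hexamer GAGGAA, the core that PU.1 binds, was searched on both strands from 250 bases before to 50 bases after each start. It occurred once in the Csf3r window, on the gene's strand, and once, on the other strand, in the window of the inner Runx1 start. The other member windows had no match, and Spi1 and Cebpe had no window to search. Of all 32851 promoter windows of that length, 28.3% held it. Another hexamer searched, TGTGGT, matched 2 times on the other strand at the outer Runx1 start and in no other member window. It was held by 16.8% of all windows. The 3 measured Csf3r CpGs averaged 28.2% ± 1.97 in saline blood (SD, n = 4), while the windows of Irf8 and of the inner Runx1 start had group means of at most 1.20% and 0.710% in the groups measured there. The Irf8 window had no value in LPS blood at 12 h, and 5 cytosines in the other blood groups.

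In blood, 4 members had lower and 3 had higher mean methylation 6 h after LPS than after saline (limma on gene means, adjusted p under 0.05 by Benjamini-Hochberg over all genes). Spi1, Cebpe, Csf3r and Irf8 fell, and Runx1, Gfi1 and Cebpb rose. Over all 16627 genes tested in that table, 34.4% were called higher, 8.05% lower and 42.5% in either direction. The 4 of 8 members that fell stand beside a background of 8.05%. Since the members were chosen with earlier results of these data known, such comparisons are a description and not a test. At 12 h, 2 members were higher and 4 lower against backgrounds of 37.1% and 6.44%, and at 24 h again 2 and 4 against 32.2% and 7.32%. Cebpb passed at 6 h alone and Cebpa at no time. The median difference over the 8 members was -2.19, -0.889 and -2.67 points at 6, 12 and 24 h, beside the all-gene medians given above. With each library's mean subtracted, 6 members were called lower at each time, and 2 (6 h), 1 (12 h) and 2 (24 h) higher; Cebpa and Cebpb then turned to the lower side, and the rise of Gfi1 at 12 h no longer passed.

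**Figure D1:**
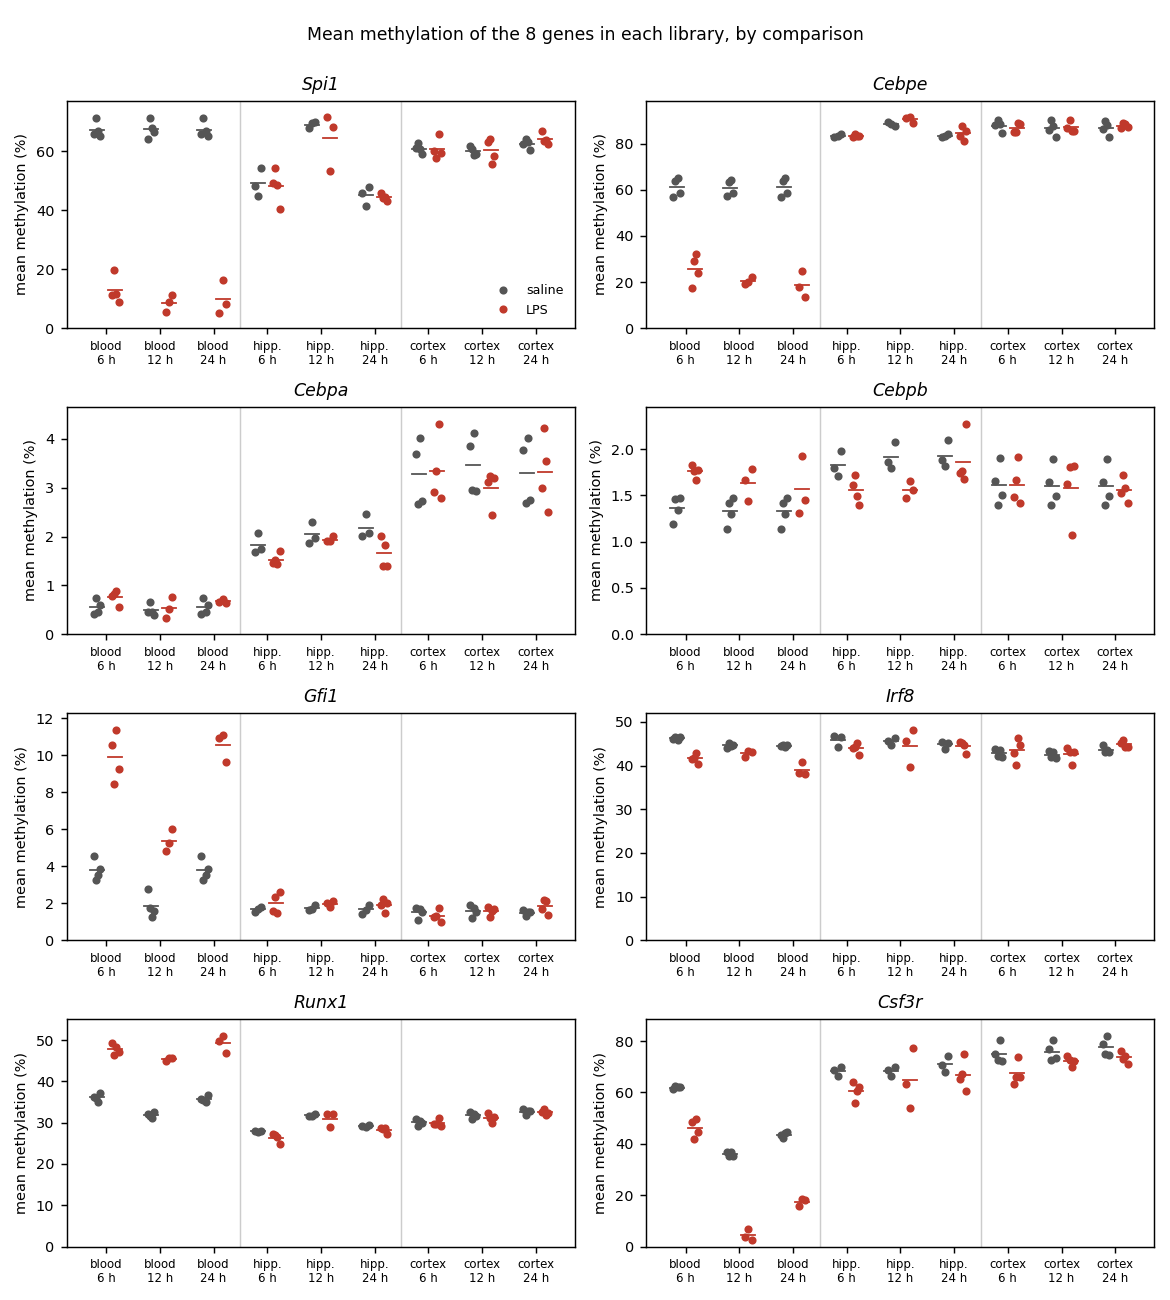
Mean percent methylation of each member in every library (points), one panel per gene, with grey for saline, red for LPS and bars at group means; the 9 columns are the tissue and time tables, each with its own cytosines. In blood the LPS points of Spi1, Cebpe and Csf3r lie below and those of Runx1 and Gfi1 above all saline points, whereas brain points of these genes mostly overlap.

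Spi1 (chr2:91082374-91115759) had the deepest loss. Its mean over 17 cytosines was 65.8%, 71.1%, 66.9% and 64.9% in the 4 saline blood libraries and 11.4%, 19.7%, 11.7% and 8.87% in the 4 LPS libraries at 6 h. The 3 LPS libraries at 12 h had 5.39%, 8.77% and 11.1% over 13 cytosines, and those at 24 h had 5.05%, 16.2% and 8.11% over the 17. Every LPS library lay far below the lowest saline library. The differences were -54.3 points (SE 2.34, adjusted p 2.82e-06, limma), -58.9 (SE 1.91, adjusted p 2.08e-06) and -57.4 (SE 2.68, adjusted p 6.06e-06).

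The loss ran through the whole measured length of Spi1. Each of its 17 tested cytosines was called lower at 6 h, the smallest difference being -27.7 points, and so were 13 of 13 at 12 h and 17 of 17 at 24 h; over all cytosines tested in these tables, 7.63%, 7.14% and 8.08% were called lower. At chr2:91097145 the mean fell from 79.3% ± 4.42 (n = 4) to 11.5% ± 4.89 at 6 h (n = 4), 3.42% ± 1.02 at 12 h (n = 3) and 1.06% ± 0.978 at 24 h (n = 3). Among its 1 kb tiles with at least 3 cytosines, that starting at 91113000 kept the most, 26.7% at 6 h against 66.6% in saline. The tile starting at 91084000 had 12.9% ± 8.32 at 6 h against 67.6% ± 7.96.

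Cebpe (chr14:54710363-54712174), a short gene that acts late in granulocyte maturation, lost methylation at all of its measured cytosines. Its mean over 24 cytosines was 57.1%, 64.0%, 65.2% and 58.9% in saline blood and 17.6%, 29.3%, 32.2% and 24.0% at 6 h. At 12 h the 3 libraries had 19.3%, 20.2% and 22.1% over 21 cytosines, and at 24 h 18.0%, 24.9% and 13.6%. At each time the highest LPS library was below the lowest saline library. The differences were -35.5 (SE 3.22, adjusted p 5.17e-05), -40.4 (SE 1.86, adjusted p 6.24e-06) and -42.5 points (SE 2.99, adjusted p 3.38e-05), and 24 of 24, 21 of 21 and 24 of 24 cytosines were called lower.

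Within Cebpe the cytosines were not equally affected. The 8 cytosines of the tile at 54712000 fell from 61.4% to 17.8% at 6 h and 10.4% at 24 h, whereas the 16 of the tile at 54711000 stood at 29.8% at 6 h. At chr14:54712054 saline blood had 62.3% ± 9.59 and LPS blood 13.5% ± 4.52 at 6 h. At chr14:54711878 the level was 75.9% ± 5.22 in saline, 39.6% ± 14.3 at 6 h, 35.0% ± 7.97 at 12 h and 14.2% ± 14.1 at 24 h. The spread at that site at 6 and 24 h was wide, and the step between times was not tested at single cytosines.

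**Figure D2:**
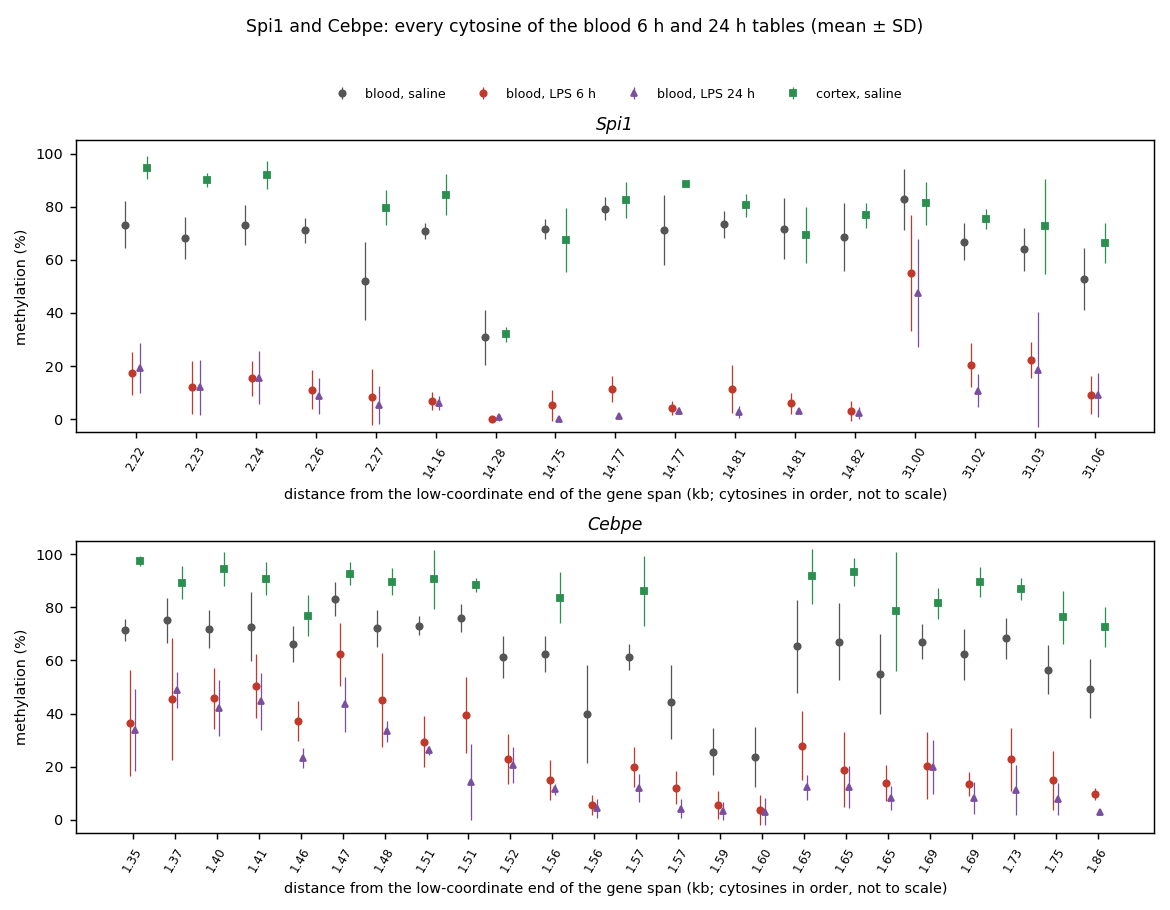
Percent methylation (mean and SD over libraries) at the 17 Spi1 and 24 Cebpe cytosines of the blood tables at 6 and 24 h, in order along the chromosome and not to scale, for saline blood, LPS blood at 6 and 24 h, and saline cortex where measured. LPS blood lies below saline blood at every cytosine of both genes, and saline cortex mostly lies at or above saline blood.

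Csf3r (chr4:126023441-126044975) lost methylation upstream of the start at 126024659, in and around the promoter printed above. That start lies inside the RefSeq span, which begins at 126023441, so these cytosines are within the span as annotated. The 5 of them lie at -380, -311, -238, -214 and -196 bp from that start. Together they had 36.8%, 35.3%, 37.0% and 35.1% in saline blood. LPS libraries had 2.58%, 5.15%, 5.01% and 0.833% at 6 h. Later they had 3.91%, 6.65% and 2.58% (12 h) and 2.84%, 6.75% and 2.58% (24 h). Saline libraries lay within 2 points of each other and every LPS library was below 7%. The differences of this tile were -32.7 (SE 1.74, adjusted p 2.50e-08), -31.7 (SE 1.88, adjusted p 1.17e-07) and -32.0 points (SE 1.99, adjusted p 1.29e-07).

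The 5 Csf3r sites had different levels in saline blood and were all low after LPS. In the order above they averaged 54.2%, 41.5%, 21.7%, 39.0% and 23.8% in saline blood and 3.89%, 6.84%, 1.74%, 2.58% and 1.91% in LPS blood at 6 h, and all 5 were called lower at each time. The 3 capitals of the printed Csf3r sequence are the sites at -238, -214 and -196 bp. They averaged 2.08% ± 1.81, 1.42% ± 0.809 and 2.06% ± 1.46 in LPS blood at 6, 12 and 24 h, against 51.5% ± 0.896 in saline hippocampus and 59.2% ± 13.2 in saline cortex. Downstream the values were otherwise: the tile at 126032000 had 89.3% in saline and 90.2% in LPS blood at 6 h, and 5 of 10 Csf3r cytosines of that table were called, all of them upstream. The gene mean therefore depended on the table, falling from 61.9% ± 0.522 to 46.1% ± 3.62 over 10 cytosines at 6 h, from 36.0% ± 0.940 to 4.38% ± 2.07 over 5 at 12 h, and from 43.6% ± 1.05 to 17.5% ± 1.44 over 6 at 24 h.

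**Figure D3:**
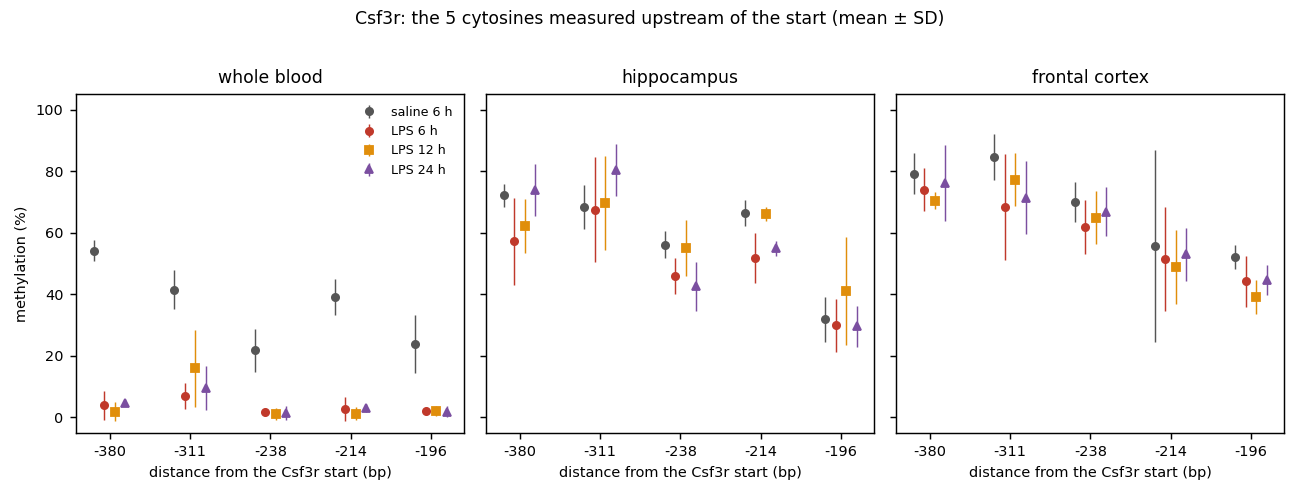
Percent methylation (mean and SD over libraries) at the 5 cytosines upstream of the Csf3r start, by distance in bp, in the 12 groups of tissue and treatment. The 3 LPS blood groups lie at or below 15.9% at every site, saline blood lies between 21.7% and 54.2%, and the brain groups mostly lie higher.

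Runx1 (chr16:92601466-92826074, minus strand) gained methylation on average, although single regions of it lost nearly all of theirs. Its mean over 264 cytosines was 36.2%, 36.1%, 35.0% and 37.2% in saline blood and 49.4%, 46.4%, 48.5% and 47.2% in LPS blood at 6 h. LPS libraries had 45.0% to 45.6% at 12 h (238 cytosines, saline 31.2% to 32.6%) and 46.9% to 51.1% at 24 h (268 cytosines, saline 35.0% to 36.6%). The groups did not overlap, and the differences were +11.7 (SE 0.769, adjusted p 1.09e-05), +13.5 (SE 0.466, adjusted p 2.40e-06) and +13.5 points (SE 1.02, adjusted p 4.69e-05). The median over the Runx1 cytosines rose more, by 42.2, 24.9 and 43.8 points. Of 22 Runx1 tiles tested at 6 h, 13 were called higher and 3 lower, where 29.6% of all tiles were called higher and 11.8% lower. Of its 154 tested cytosines, 88 were called higher and 14 lower, against 20.6% and 7.63% of all cytosines.

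The largest Runx1 gain lay just inside the gene body behind the inner start. The tile at 92695000, whose centre is 1829 bp downstream of that start, held 19 cytosines and had 17.3%, 21.1%, 20.4% and 22.8% in saline blood. LPS libraries had 83.9%, 71.5%, 83.5% and 80.6% at 6 h. Later they had 86.6%, 83.3% and 86.0% (12 h) and 83.9%, 88.4% and 71.5% (24 h). The rise was 59.5 points at 6 h (SE 3.38, adjusted p 2.82e-08). The neighbouring tile at 92694000 rose from 27.8% to 86.2%, and the tile at 92696000 from 4.74% to 14.8%. At the inner start itself the 2 tiles at 92697000 and 92698000 had 0.832% and 1.33% in saline and 1.15% and 2.43% in LPS blood, below the level at which tiles were tested. The sequence printed for the inner start lies in this unmethylated stretch.

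A second Runx1 gain lay near the 3′ end. The tile at 92605000 rose from 38.4% ± 7.42 to 90.0% ± 4.84 at 6 h, with 92.8% ± 2.48 at 12 h and 94.6% ± 3.78 at 24 h. The single cytosine chr16:92605936 had 26.7% ± 6.16 in saline and 97.9% ± 3.61 at 24 h. In brain both gained regions were sparsely methylated, the tile at 92695000 at 1.41% in saline hippocampus and 1.55% in saline cortex, and the tile at 92605000 at 6.53% and 5.33% in the 6 h tables.

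The Runx1 losses lay toward the outer start at 92826074. The 3 cytosines of the tile at 92825000, centred 574 bp downstream of that start, had 57.5%, 62.8%, 56.9% and 57.7% in saline blood. The 4 LPS libraries at 6 h had 0%, 4.20%, 2.63% and 0%. The later libraries had 1.04%, 0% and 4.69% (12 h) and 0.654%, 1.57% and 1.31% (24 h). The difference was -57.0 points at 6 h (SE 2.30, adjusted p 2.10e-08), in the opposite direction to the gene mean. Saline hippocampus had 51.4% ± 11.5 (n = 3) at these sites. The tile at 92801000, 24574 bp downstream of the outer start, fell likewise from 51.6% ± 4.61 to 4.34% ± 5.87 at 6 h and 0.820% ± 0.331 at 24 h, with 81.7% ± 4.63 in saline hippocampus. The third tile called lower, at 92816000, fell from 84.8% ± 3.28 to 74.3% ± 2.28 at 6 h. Between these lay a tile at 92809000 that rose, from 63.7% ± 5.06 to 80.7% ± 0.455 (adjusted p 3.25e-04), so gains and losses alternated in this stretch. The 250 bases before the outer start had no measured cytosine.

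**Figure D4:**
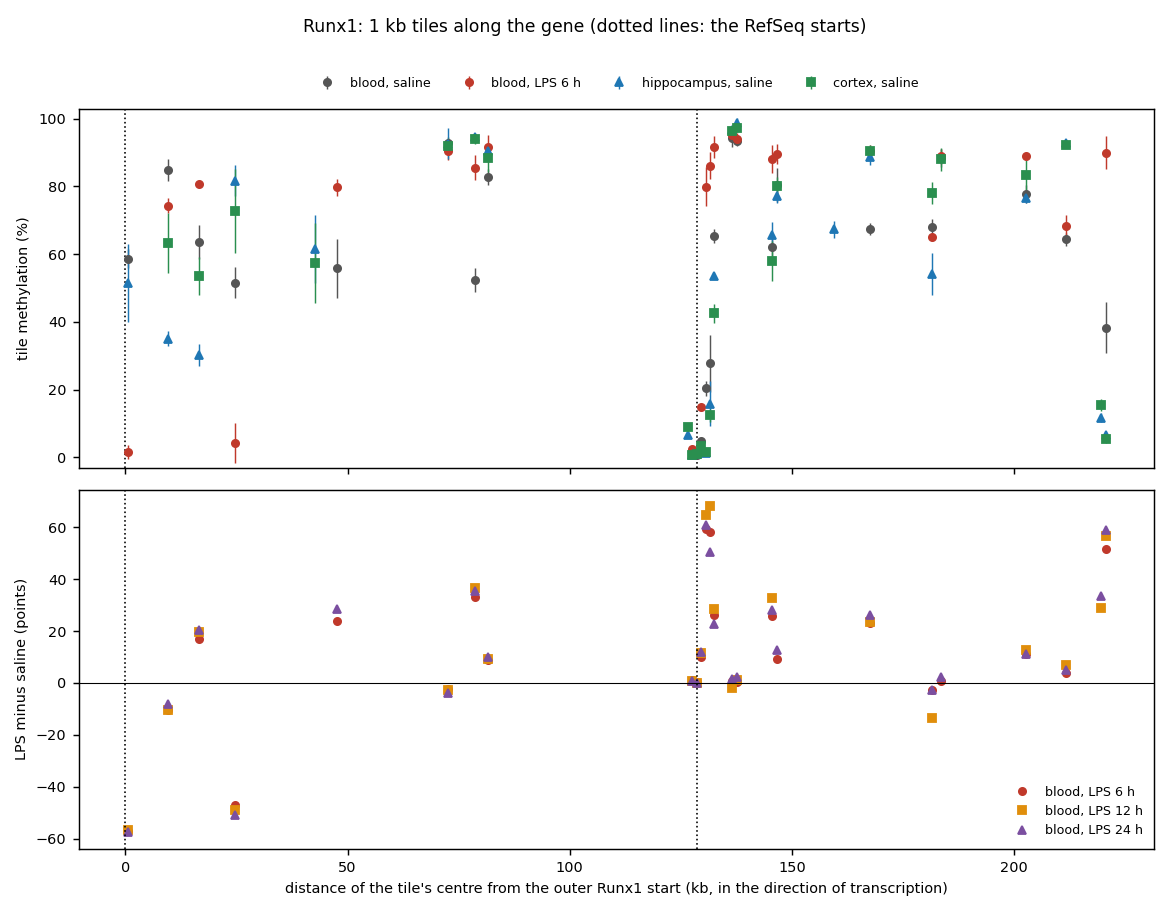
Runx1 in 1 kb tiles against distance in kb from the outer start in the direction of transcription. The upper panel gives percent methylation (mean and SD) in saline blood, LPS blood at 6 h, saline hippocampus and saline cortex, the lower panel the LPS minus saline difference in blood at 6, 12 and 24 h, and dotted lines mark the 2 RefSeq starts. The tile nearest the outer start falls by about 57 points and the tile at 92695000, behind the inner start, rises by 59.5 points or more at each of the 3 times.

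Irf8 (chr8:120736358-120756694) changed in opposite directions along its length, and its mean moved by less than single regions did. Its mean over 91 cytosines was 46.0%, 46.5%, 45.9% and 46.5% in saline blood and 41.6%, 41.7%, 42.8% and 40.5% at 6 h, a difference of -4.60 points (SE 0.568, adjusted p 2.74e-04). It was -1.82 at 12 h (adjusted p 0.0234) and -5.47 at 24 h (adjusted p 0.00115). On the 64 Irf8 cytosines found in all 9 tables the sign turned, with differences of +1.62, +1.33 and +1.67 points that did not pass (adjusted p 0.0935, 0.103 and 0.229). The median over its cytosines, by contrast, fell by 29.2 points at 6 h, and the differences of the median at 12 and 24 h were -25.8 and -36.1 points, all 3 called. The 12 h call also ended without saline library 2 (adjusted p 0.0607), saline library 4 (0.0587) or LPS library 1 (0.0520), and with the replicate number as a block (0.0702).

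The middle of Irf8 lost and its 3′ end gained methylation. The tile at 120745000 had 63.7%, 65.1%, 54.0% and 62.7% in saline blood and 8.74%, 13.9%, 8.17% and 11.0% in LPS blood at 6 h. It fell further from saline at 12 h, to 5.51% ± 0.404, and at 24 h, to 4.09% ± 1.94. The tile at 120743000 fell from 51.6% ± 4.71 to 7.94% ± 3.22 at 6 h, and that at 120750000 from 76.9% to 46.8%. The tile at 120755000, whose centre is 16861 bp downstream of the inner start, rose instead, from 59.1%, 61.5%, 63.0% and 62.0% to 88.8%, 82.2%, 88.8% and 89.9% (+26.1 points, SE 2.71, adjusted p 2.41e-06). At 6 h, 4 Irf8 tiles were called lower and 1 higher of 8 tested, where 11.8% of all tiles were called lower and 29.6% higher. Of its 57 tested cytosines, 15 were called lower and 9 higher, against 7.63% and 20.6% of all cytosines. The higher counts are thus smaller shares than those of all tiles and cytosines. The start tile at 120736000 had 2.77% in saline and 2.52% in LPS blood.

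Gfi1 (chr5:107716655-107725805, minus strand), a zinc-finger repressor needed for neutrophil formation, gained methylation in 1 place. Its mean over 92 cytosines was 4.57%, 3.27%, 3.52% and 3.88% in saline and 10.6%, 8.44%, 11.4% and 9.27% in LPS blood at 6 h (+6.10 points, SE 0.624, adjusted p 9.65e-05). At 12 h it rose by 3.51 points over 64 cytosines (adjusted p 5.03e-04) and at 24 h by 6.74 over 92 (adjusted p 2.71e-05). The tile at 107721000, whose centre is 2843 bp downstream of the inner start, had 27.0%, 19.1%, 16.4% and 20.7% in saline. LPS libraries there had 76.7%, 57.8%, 82.9% and 66.6% at 6 h and 80.4%, 79.1% and 69.6% at 24 h, with 65.6%, 74.4% and 81.4% at 12 h over 4 rather than 12 cytosines. All LPS libraries exceeded all saline libraries. The other 4 Gfi1 tiles had group means below 2.20% in every blood table and were not tested. The promoter window of the outer start had no measured cytosine. That of the inner start averaged 2.40% ± 1.71 in saline blood (n = 4). In saline brain the gained tile had 1.44% to 2.19%.

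**Figure D5:**
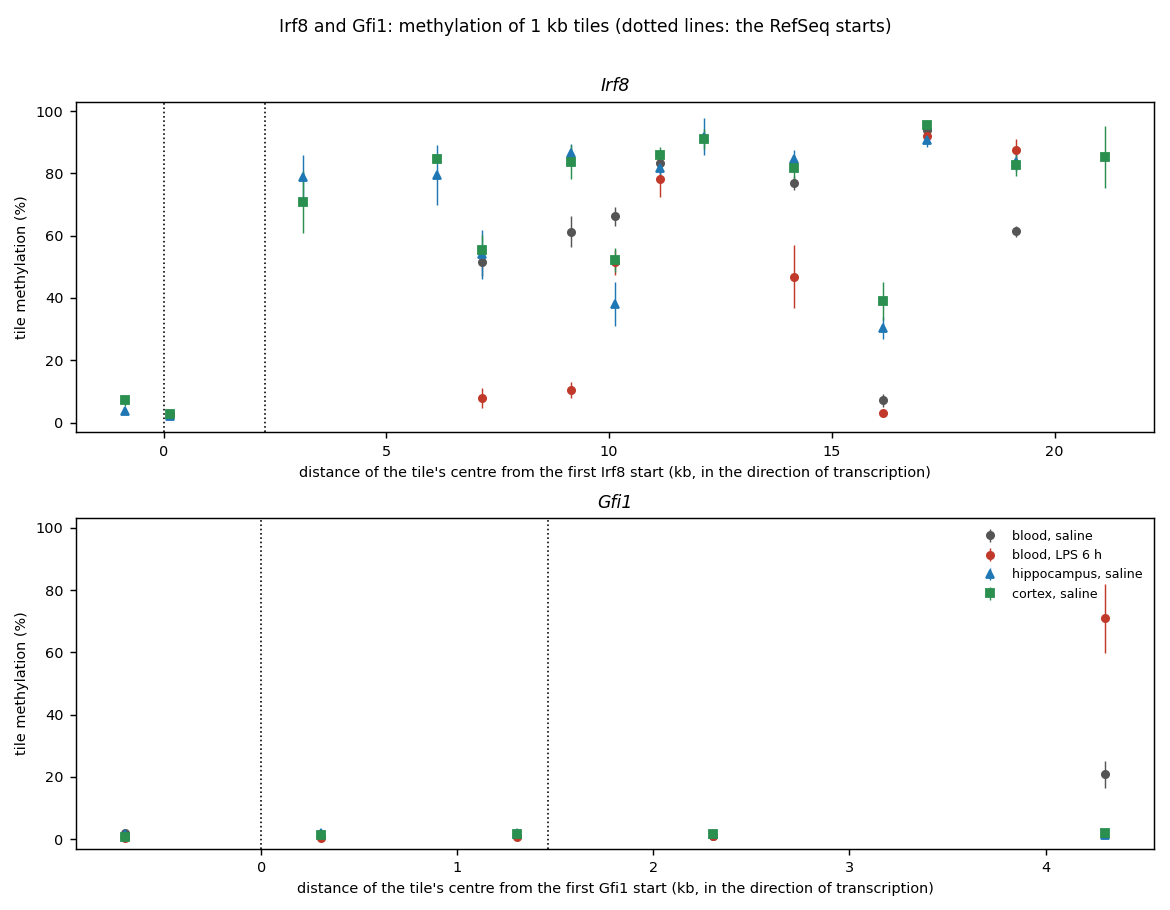
Irf8 and Gfi1 in 1 kb tiles against distance in kb from the outer start in the direction of transcription, with percent methylation (mean and SD) in saline blood, LPS blood at 6 h, saline hippocampus and saline cortex. LPS blood drops below all other groups at the Irf8 tiles that start at 120743000, 120745000 and 120750000, and rises to 71.0% at a single Gfi1 tile that has at most 20.8% in the other groups shown.

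Cebpa and Cebpb are single-exon genes in CpG-dense surroundings, and both were nearly unmethylated in every tissue. The Cebpa (chr7:35119293-35121928) mean over 135 cytosines was 0.551% ± 0.150 in saline and 0.761% ± 0.142 in LPS blood at 6 h, with overlapping libraries (+0.211 points, adjusted p 0.266). Differences of +0.0456 and +0.131 at 12 and 24 h did not pass either (adjusted p 0.840 and 0.549). Cebpb (chr2:167688915-167690432) had 1.19%, 1.46%, 1.34% and 1.47% in saline and 1.83%, 1.77%, 1.67% and 1.78% in LPS blood at 6 h (+0.392 points, SE 0.126, adjusted p 0.0345). This call was lost without any library but LPS library 3 (7 of 8, adjusted p 0.0504 to 0.0935) and with a replicate block (0.113), and the sign reversed to -1.53 points after centring.

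Near Cebpb, a stretch upstream moved more than the gene. The tile at 167687000, which reaches beyond the window, fell from 30.8% ± 4.26 to 18.3% ± 2.37 at 6 h (adjusted p 6.55e-04), 17.5% ± 3.93 at 12 h and 15.1% ± 6.27 at 24 h over 3 cytosines. The single cytosine chr2:167688436 rose from 7.42% ± 5.66 to 24.9% ± 1.28 at 12 h (adjusted p 0.00449), and was also called at 6 h (adjusted p 0.00375). At 24 h it had 17.6% ± 8.72 and did not pass.

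Counted over single cytosines, 112 of 284 tested member sites were called higher and 75 lower in blood at 6 h, against 20.6% and 7.63% of all tested sites. At 12 h 62 of 228 were called lower, and more were called higher (background 23.1% and 7.14%, 30.2% in either direction), and at 24 h 118 and 79 of 276 (21.1% and 8.08%). Runx1 supplied 88 of the 112 sites that were higher at 6 h. Neighbouring cytosines of 1 gene share fragments and reads and are not independent. Over 1 kb tiles, 15 of 39 were called higher and 14 lower at 6 h, where 41.4% of all tiles were called. At 12 h 27 member tiles were called (34.6% of all tiles higher, 9.95% lower), and at 24 h 31 (42.5% of all tiles in either direction).

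The called tiles were set beside their level in brain. Of the 15 member tiles called higher at 6 h, 14 also had values in both brain tissues: their median level was 61.8% in saline blood, 87.8% in LPS blood, 59.6% in saline hippocampus and 55.7% in saline cortex. Of the 14 called lower, 9 had brain values, with medians of 61.4%, 10.5%, 77.2% and 72.7%. LPS blood lay outside the range from saline blood to saline brain at 13 of the 14 rising and 7 of the 9 falling tiles. These tiles were selected on the blood difference, which favours LPS blood as the extreme value. The blood medians and the counts outside the range are therefore a description. Of the 15 tiles called higher, 13 lie in Runx1, and tiles of 1 gene are not independent.

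In hippocampus and frontal cortex no member was called in any of the 6 comparisons with limma, where 0.00598% of genes were called in hippocampus at 6 h and 0% in the others. At an unadjusted p under 0.05 there was 1 member in hippocampus at 6 h and 1 in cortex at 6 h, Csf3r each time, and 0 in the other 4 comparisons. Over all genes the count at that threshold was 3818 of 16712 in hippocampus and 253 of 16928 in cortex at 6 h, so 1 of 8 members in hippocampus is a smaller share than that of all genes. Csf3r in hippocampus had 68.9%, 66.3% and 69.9% in saline and 63.9%, 55.8%, 60.5% and 62.0% in LPS libraries at 6 h, which did not overlap (-7.82 points, unadjusted p 0.00514, adjusted p 0.0837). Runx1 libraries did not overlap there either. Nor did the library means over all cytosines, at 24.2% to 24.9% in LPS and 25.6% to 25.9% in saline. In cortex at 6 h the Csf3r difference was -7.62 points (unadjusted p 0.0201, adjusted p near 1). The other 4 Csf3r differences in brain ranged from -3.96 to -3.53 points. No tile and no cytosine of a member was called in brain.

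Centring moved 1 brain comparison. In hippocampus at 6 h, where LPS libraries had a lower overall mean, 2 members were then called higher and 1 lower, among them Csf3r at -6.66 and Gfi1 at +1.49 points, while 4588 genes were called in place of 1. In hippocampus at 12 h the LPS library 2 had 53.3% for Spi1 against 71.4% and 68.1% in the others, and without it 2 member sites were called where there had been 0.

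The LPS difference in blood was tested against that in brain directly, on the cytosines found in all 9 tables, which left 7 members because Cebpe had 1 such cytosine. Against hippocampus 5, 5 and 4 of 7 members were called at 6, 12 and 24 h (background 36.4%, 31.6% and 31.2%), and against cortex 4, 4 and 4 (29.1%, 33.3% and 27.2%). Spi1 had a contrast of -47.9 points at 6 h against hippocampus (SE 7.70, adjusted p 5.16e-06) and of -63.8 points against cortex (SE 7.40, adjusted p 1.50e-08). Runx1 rose 12.9 points more in blood than in hippocampus (SE 1.11, adjusted p 2.01e-11), and 11.3 more than in cortex. Csf3r and Gfi1 were called in all 6 contrasts on these cytosines, Irf8 and Cebpa in none. Cebpb was called against hippocampus at 6 h (+0.724 points) and 12 h (+0.719). The first call was lost without saline hippocampus library 3 (adjusted p 0.0625), and the second without that library (0.0945), saline blood 1 (0.0666), LPS blood 3 (0.103) or LPS hippocampus 1 (0.0700). After centring, none of the 6 Gfi1 contrasts passed: against hippocampus they were -0.524, 0.442 and 0.506 points (adjusted p 0.480, 0.590 and 0.516), where they had been 2.43, 3.11 and 3.01, and against cortex 0.756, 0.952 and 1.30 (adjusted p 0.302, 0.200 and 0.0926). Cebpe, compared on the cytosines shared by the 2 tables of a time, had contrasts of -43.5, -41.0 and -50.9 points against hippocampus and -35.0, -41.8 and -46.2 against cortex, all 6 of them called. On these shared cytosines, a set chosen after seeing the data, Irf8 was called lower in blood against cortex at 6 and 24 h. Its contrasts were -5.64 points (limma, adjusted p 0.0248) and -6.86 points (adjusted p 5.65e-04). Their sign was opposite to that on the cytosines found in all 9 tables.

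Without LPS, the 5 upstream Csf3r cytosines set blood apart from brain. Saline blood had 36.0% ± 0.940 (n = 4), hippocampus 59.0% ± 2.12 (n = 3) and cortex 68.3% ± 7.34 (n = 4). Blood minus hippocampus was -22.9 points (SE 3.20, adjusted p 2.22e-04) and blood minus cortex -32.2 (SE 2.96, adjusted p 1.17e-05), while the contrast of hippocampus with cortex did not pass (adjusted p 0.129). Cebpa, Cebpb and Irf8 were also lower in blood than in either brain tissue, with differences of -0.963, -0.685 and -2.97 points against hippocampus and -1.82, -0.415 and -5.78 against cortex. The 4 of 7 members called in each contrast compare with 38.3% and 39.3% of all genes. Spi1 had overlapping levels in the 3 tissues, at 62.8% ± 6.68, 67.3% ± 3.79 and 66.9% ± 4.07 over 5 cytosines, with no contrast called (adjusted p 0.354, 0.382 and 0.972). This depended on the cytosines: over the 14 Spi1 cytosines found in at least 1 table of each tissue, a set chosen after seeing the data, saline blood had 66.5% ± 3.19, hippocampus 73.2% ± 2.20 and cortex 76.2% ± 2.23, and blood was called lower than both (-6.67 points, adjusted p 0.0150, and -9.71 points, adjusted p 9.88e-04). On that set Gfi1 was called higher in blood than in hippocampus and cortex (2.06 and 2.15 points), and Csf3r lower in hippocampus than in cortex (-8.09, adjusted p 0.0323). The Cebpb call of blood against cortex (adjusted p 0.0637) and the Irf8 call between the brain tissues (0.100) were lost on it. Centring ended the Cebpa call between the brain tissues (adjusted p 0.351) and gave a Runx1 call of blood against cortex (-1.86 points, adjusted p 0.0139). Between the brain tissues 2 of 7 members were called, Cebpa and Irf8, both lower in hippocampus (background 6.99%), and leaving out single libraries gave 0 to 3. The Cebpa call between the brain tissues was lost without any saline library but cortex 2 and 4 (adjusted p 0.0542 to 0.129), and that of Irf8 without any of the 3 hippocampus libraries or cortex 1 or 3 (0.0591 to 0.0881). The Cebpb call of blood against cortex was lost without any saline library but hippocampus 3 and cortex 2 (0.0505 to 0.110). Runx1 was called in that contrast without blood 4 or cortex 2 (0.0348 and 0.0271), and Csf3r between the brain tissues without cortex 2 (0.0253).

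Set over all 12 groups on common cytosines, the profile of Spi1 put LPS blood at 3.69% ± 3.08, 3.43% ± 0.869 and 1.85% ± 0.788 at 6, 12 and 24 h. Every other group, saline blood included, had a mean of 56.1% to 71.6%, and the ranges of most of those groups overlapped. Csf3r put LPS blood lowest, at 3.39% ± 2.07, 4.38% ± 2.07 and 4.06% ± 2.33, saline blood next, and the 8 brain groups above both, at 50.5% to 68.3%. Gfi1 had 4.37% to 5.37% in the 3 LPS blood groups, 1.85% ± 0.666 in saline blood and 1.38% to 1.96% in brain. Runx1 had 41.1% to 42.4% in LPS blood, 29.9% ± 0.745 in saline blood and 28.7% to 31.4% in brain.

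No member was called between LPS times within a tissue. In blood, limma called 0 of 7 members between 6 and 12 h, 6 and 24 h, or 12 and 24 h (background 0.0254%, 0% and 0.0191%). Of these, 1, 1 and 0 members had an unadjusted p under 0.05, Gfi1 each time (+0.996 points at 12 h, adjusted p 0.609; +0.687 at 24 h, adjusted p near 1). In hippocampus 1, 0 and 0 and in cortex 0, 0 and 0 members had an unadjusted p under 0.05, with 0 called (background 0% to 0.0127%).

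Other genes of the pathway were read, as a description, from 3 lists also chosen with earlier results of these data known. Their counts at 6, 12 and 24 h are to be read against 34.4%, 37.1% and 32.2% of all genes called higher and 8.05%, 6.44% and 7.32% called lower. Of 31 further regulators of blood lineages, all measured, 7, 11 and 7 were called higher and 8, 7 and 7 lower in blood at 6, 12 and 24 h, with median differences of -0.0200, 0.435 and 0.161 points beside all-gene medians of 0.556, 0.826 and 0.609. Nfe2, a factor of the erythroid and platelet lines, rose from 15.9% ± 1.94 to 37.8% ± 3.43 at 6 h. Runx3, a relative of Runx1 active in lymphocytes, rose by 11.7, 12.3 and 11.7 points. Meis1, a homeobox factor of stem and progenitor cells, fell, with differences of -9.92, -8.85 and -11.2 points.

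Among 10 measured of 12 colony-stimulating factors and receptors, 4, 4 and 1 were called higher at 6, 12 and 24 h and 2 lower each time, with medians of 0.716, 1.21 and 1.17 points. Csf2rb, the common beta chain of the receptors for GM-CSF, IL-3 and IL-5, fell, with differences of -30.1, -36.8 and -36.0 points. Csf3, the ligand of Csf3r, rose from 63.9% ± 4.76 to 79.7% ± 2.13 at 6 h (adjusted p 6.47e-04, 6 cytosines). At 12 and 24 h its differences of +1.85 and +4.32 points over 4 cytosines did not pass (adjusted p 0.635 and 0.136), and the libraries overlapped. Flt3, a receptor of early progenitors, fell, with differences of -8.81, -6.80 and -7.38 points.

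Of 11 measured of 15 granulocyte genes, 8, 7 and 9 were called lower at 6, 12 and 24 h and 0, 1 and 0 higher, with medians of -10.9, -15.3 and -16.1 points. Ctsg, the granule protease cathepsin G, fell, with differences of -34.1, -32.8 and -35.2 points, and so did Mpo, myeloperoxidase of the same granules (-30.8, -35.6 and -34.7). Mmp8, neutrophil collagenase, fell from 67.8% ± 1.84 to 38.8% ± 3.89 at 6 h. Prtn3, proteinase 3, fell from 37.2% ± 0.278 to 6.36% ± 0.629 at 12 h. None of the genes of the 3 lists was called in hippocampus or cortex.

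Whole blood is a mixture, so a change in the shares of its cells and a change within cells cannot be told apart in these values. Marker genes of other cells are given here beside the 34.4% of all genes called higher and 8.05% called lower at 6 h. Of 9 measured of 10 T cell markers 5 were called higher and 2 lower at 6 h, with library means of 54.2% to 57.8% in saline and 52.5% to 55.6% in LPS blood. Of 8 measured of 9 B cell markers 4 were higher and 1 lower (51.4% to 52.9%, then 53.9% to 55.7%), and of 9 measured of 10 monocyte and macrophage markers 2 were higher and 3 lower (68.7% to 70.3%, then 63.6% to 69.6%). Of 6 measured of 8 erythroid and platelet markers 1 was higher and 2 lower (30.8% to 33.6%, then 23.4% to 26.3%), and of the 5 general leukocyte markers 0 were higher and 4 lower (39.7% to 43.3%, then 28.1% to 31.4%). Of brain markers, neurons had 5 higher and 0 lower of 8 (32.7% to 33.9%, then 39.6% to 43.0%), astrocytes 1 higher and 2 lower of 5 (36.5% to 39.2%, then 41.6% to 46.0%), and oligodendrocytes 2 higher and 1 lower of 4 measured (39.4% to 40.0%, then 40.3% to 42.2%). Their part in the results for the members was not tested. RNA was not measured, so the tissues could not be checked by expressed markers.

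Over the 12 group means, 15745 genes were ranked by their likeness to each member, as a description. The points share libraries' tissues, 1 saline group per tissue and 3 LPS blood groups. Those 3 groups carry most of the spread for Spi1, Csf3r, Runx1 and Gfi1, but not for Cebpa, Cebpb or Irf8. The closest to Spi1 were Armc9 (Pearson r 0.998), Tbc1d10c (0.995) and Mpo (0.995). Csf3r was closest to Nod2 (0.995), Unc119 (0.993) and Dok2 (0.993), Runx1 to Ajuba, Palld and Tjap1 (each 0.998), and Gfi1 to Tada2a (0.995), Tmem200c (0.994) and Selenov (0.993). Irf8 was closest to Mmp23 (0.976), Cebpa to Cyp4f17 (0.990) and Cebpb to Anapc2 (0.943). Among the members, r was 0.961 between Spi1 and Csf3r, 0.969 between Gfi1 and Runx1, and -0.984 between Spi1 and Gfi1. Cebpe was not ranked, having 1 common cytosine.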

How the data were processed

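Reduced-representation bisulfite libraries were made from 100 ng of DNA, per the labels. The deposited tables hold percent methylation per cytosine and library, 1 table per tissue and time; per the submitters' processing notes, the submitters used methylKit, Bismark with Bowtie2, SAMtools, FastQC and Trim Galore on GRCm38 (mm10); for versions and coverage minimum the entry is: not given in the sources used here. No per-sample column was left unused (0). Percent values were used as deposited.

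The members and gene lists were chosen with earlier results of these data known. Each gene's window was its RefSeq span with 1000 bp on either side, and genes with at least 3 cytosines were kept. The mean percent per library was tested with limma 3.58.1 in R 4.3.3 (two-sided, with a mean-variance trend in eBayes and adjustment by Benjamini-Hochberg over the table's genes; called at adjusted p under 0.05). The same test was run on 1 kb tiles (at least 3 cytosines, mean 5% to 95%, difference at least 5 points) and on single cytosines (mean 5% to 95%, difference at least 10 points). Tissue, time and blood-against-brain contrasts used 1 fit over all 44 libraries, or the saline libraries, on cytosines found in all 9 tables. The members are named in every comparison; other genes are the 3 of each list with the largest called difference, and the 3 with the highest r. Tables were read with Python 3.11.15 and pandas 2.3.3. On simulated data the gene test recovered 66.3% to 75% of changes of 5 points and 98.4% to 100% of changes of 20 points in blood. In hippocampus these shares were 50.7% to 77.8% and 91.7% to 100%, and in cortex 60.6% to 71.4% and 95.7% to 100%. The simulation changed far fewer genes than were called in blood. Library pairs held equal values at 48.4% of cytosines at most, and none was counted as a duplicate. Exons were not placed, no genome being used here.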

Additional observations from a re-analysis of the deposited data

Results flagged for a closer look

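In 2 of 96 groups of gene means tested, 1 library stood far from the rest by Dixon's criterion, where chance gives about 5%. Cebpb in hippocampus 24 h after LPS had 2.28% in library 4 and 1.67% to 1.77% in the others. Cebpa in cortex 12 h after LPS had 2.44% in library 3 and 3.12% to 3.24% in the others.

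The remaining values are LPS differences that were not the same in blood and brain by an interaction contrast (limma, adjusted p under 0.05), given as blood minus brain in percentage points at 6, 12 and 24 h. For Spi1 they were -47.9, -53.8 and -51.5 against hippocampus and -63.8, -60.9 and -61.7 against cortex. For Csf3r they were -24.2, -31.5 and -29.3, and -24.3, -23.5 and -26.1. For Runx1 they were 12.9, 13.2 and 12.4, and 11.3, 13.1 and 11.9. For Gfi1 they were 2.43, 3.11 and 3.01, and 2.63, 3.55 and 3.07, and none of these 6 passed after libraries were centred on their mean (-0.524 to 1.30). For Cebpb the contrast passed against hippocampus alone, at 0.724 at 6 h and 0.719 at 12 h, and both turned to the lower side after centring. The contrasts of a tissue share its saline libraries.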

How the results depend on the processing

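Spi1, Cebpe, Csf3r and Runx1 kept their direction and call in blood under every alternative that gave a value for them, apart from Runx1 within 1 kb of the gene ends (3 cytosines), which was -57.0, -56.8 and -57.5 points at 6, 12 and 24 h. In the same windows Gfi1 had -0.534, -0.446 and -0.618 and Irf8 0.251, 0.270 and 0.343 points, and 3, 3 and 3 members were called where 7, 6 and 6 had been. On cytosines in all 9 tables Irf8 had 1.62, 1.33 and 1.67 points. Its contrast of blood with cortex on cytosines in both tables was -5.64 at 6 h and -6.86 at 24 h. Both of these passed (limma, adjusted p 0.0248 and 5.65e-04), where no Irf8 contrast had on cytosines in all 9 tables. Centring libraries on their mean reversed Cebpa in blood (-1.71, -2.40 and -1.90), Cebpb in blood (-1.53, -2.15 and -1.79) and Cebpb in hippocampus at 6 h (0.893). It also reversed the contrasts of blood with hippocampus for Cebpb (-2.23, -1.95 and -2.18), Cebpa (-2.75, -2.66 and -2.22) and Gfi1 at 6 h (-0.524; the other 5 Gfi1 contrasts, 0.442 to 1.30, no longer passed), and those with cortex for Cebpa (-1.76, -2.40 and -1.66) and for Cebpb at 12 h (-2.23). With centring 3 members were called in hippocampus at 6 h and 1 between the saline brain tissues. With at least 5 cytosines per tile, fewer tiles were testable and 17, 15 and 17 were called in blood where 29, 27 and 31 had been. On cytosines found in at least 1 table of each tissue, an alternative chosen after seeing the data, 7 members differed between saline blood and hippocampus where 4 had. Leaving out 1 library gave 0 to 3 members between the brain tissues and 0 to 2 member sites in hippocampus at 12 h. With the replicate number as a block, 70 of 72 gene values kept their call and 2 lost it, Cebpb at 6 h and Irf8 at 12 h (-1.76 points). No count of members moved by over 1.5 times. Deviations of same-numbered libraries correlated from -0.231 to 0.321. With so few libraries per group, this range cannot show whether they share more than a number. The labels give only the number, and the pairing was not used. Unless stated, the cause of these shifts was not tested. Read depth is unknown and limits single cytosines most; leave-one-out of tiles, sites and contrasts was also chosen after seeing the data.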
